A study of Mus musculus with 6 samples.

Results

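The tissue kallikreins Klk5 to Klk14 are 10 secreted serine proteases of the epidermis, taken here by their gene symbols from the 55487 Ensembl genes measured in each library. All 10 were found in the files, and 9 passed the filter on low values that precedes testing, 1 FPKM or more in 3 or more of the libraries. FPKM is the number of sequenced fragments scaled to transcript length and to library size, so levels of different genes can be set side by side on it. The exception was Klk12.

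Kallikreins work in the outer epidermis as a cascade of proteases that are made as inactive precursors. Cells of the granular layer, the last living layer, pack them into lamellar granules and release them between the cells. There Klk5 and Klk7 cut the corneodesmosomes, the junctions that hold the dead outer cells together, so that these cells are shed, a process called desquamation. Klk5, Klk6, Klk8, Klk11, Klk12, Klk13 and Klk14 are related to trypsin, Klk7 cuts like chymotrypsin, and the inhibitor LEKTI, made from Spink5, holds several of them in check.

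The libraries came from epidermal cells of newborn mice at postnatal day 0. The labels give 3 libraries as Control and 3 as Znf750 cKO, written Znf750_cKO here, a knockout of the zinc finger transcription factor gene whose mouse symbol is Zfp750. The sources used here do not give the Cre line, the tissue in which it acts, the genotype of the controls, strain, sex or litters. Nothing says that the libraries of a group came from separate animals, so p-values measure the spread between these libraries only.

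As a check of the labels, Zfp750 stood between 32.0 and 44.8 FPKM in Control and between 0.83 and 1.47 FPKM in Znf750_cKO. Steps in the low values place the depth at an estimated 21.5 to 35.4 M reads per library. The 5 basal keratinocyte markers summed to 11860 to 13170 FPKM in Control and 13650 to 15220 in Znf750_cKO, and these genes were abundant in all 6 libraries. All 5 log2 changes were positive and 0 passed limma, with unadjusted p of 0.016 for Krt14, 0.0072 for Itga6 and 0.0096 for Col17a1. Of 4 spinous keratinocyte markers 0 passed limma. The 6 leukocyte markers summed to 48.6 to 78.3 FPKM in Control and 7.08 to 10.3 in Znf750_cKO, and 3 of the 3 tested fell, while Cd207 stood at or near 0 throughout. Of 7 hair follicle markers 2 rose and 3 fell, beside 4.22% called among all tested genes. Krt79 stood at 348 ± 95.8 FPKM in Control libraries against 132 ± 13.9 in Znf750_cKO libraries (limma adjusted p = 0.020). Tchh stood at 14.2 ± 1.93 against 80.2 ± 33.4 (limma adjusted p = 0.027). Krt71 and Krt27, the others that fell, lay under 1 FPKM in each Znf750_cKO library, so they reached the filter only through the Control libraries. Of 2 tested erythroid markers 0 passed limma, and Hbb-bs, at 10.8 ± 5.91 against 2.65 ± 1.46 FPKM, had an unadjusted p of 0.0068. The part of these cell types in the kallikrein values was not tested. Among markers of melanocytes, fibroblasts and endothelium 0 passed limma, and 0 had an unadjusted p under 0.05. The endothelial Cdh5, Kdr and Tie1 and the muscle gene Myh3 were at or near 0 in each library. Pecam1, also on the endothelial list, was present in every library, with 9.34 to 25.1 FPKM among Controls and 5.46 to 31.1 FPKM among knockouts. Group means of the fibroblast marker Dcn were 143 FPKM for Control and 141 FPKM for Znf750_cKO.

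In brief, Klk10 and Klk11 fell in Znf750_cKO, Klk10 by 2.13-fold and Klk11 by 1.75-fold in the ratio of mean FPKM. The other 7 tested kallikreins did not pass. Of the 9, 6 had a negative and 3 a positive log2 change. The 3 positive ones, Klk5, Klk6 and Klk7, are neighbours at the downstream end of the gene cluster. Summed over the 10 genes, the FPKM was 579 ± 136 (SD, n = 3) in the Control libraries and 520.1 ± 58.1 in the Znf750_cKO libraries, and the groups overlapped.

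**Figure D1:**
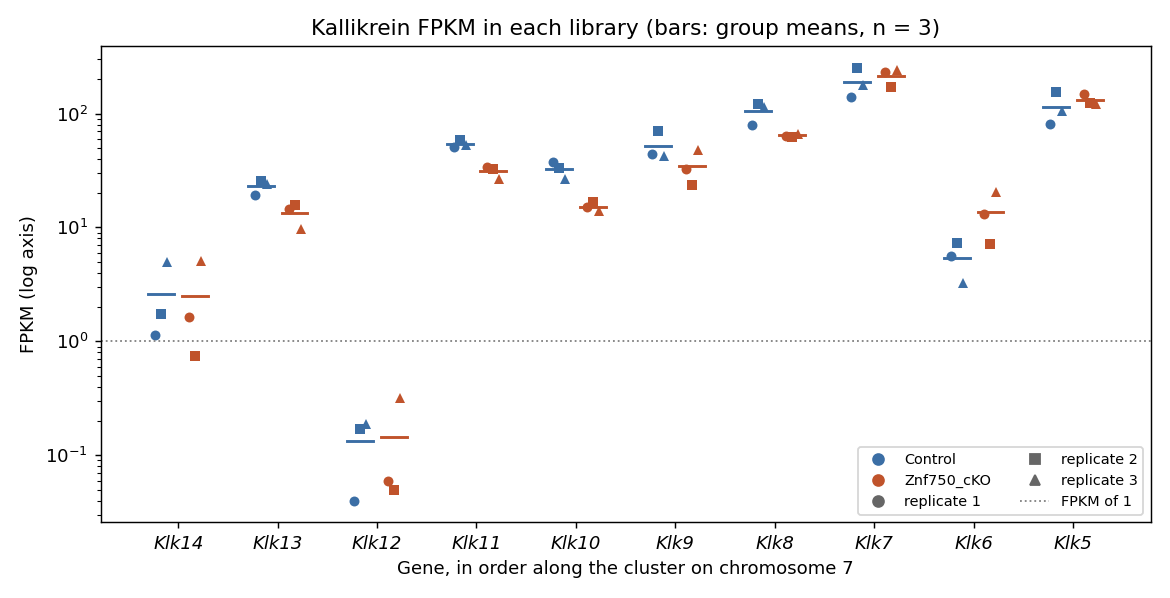
FPKM (log axis) of the 10 kallikrein genes in each of 6 libraries, in the order of the genes along chromosome 7; points are libraries, marker shapes are replicate numbers and bars are group means (n = 3). For Klk8, Klk10, Klk11 and Klk13 the Znf750_cKO points all lie below the Control points, and for the other genes the groups overlap.

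The 10 genes lie side by side on mouse chromosome 7 (GRCm38, GENCODE release M21), from 43690418 to 43851181, a stretch of 160.8 kb. All 10 are on the plus strand, in the order Klk14, Klk13, Klk12, Klk11, Klk10, Klk9, Klk8, Klk7, Klk6, Klk5. The gap between neighbours is 41362 bases from Klk13 to Klk12, and only 819 bases from Klk9 to Klk8 and 1771 bases from Klk11 to Klk10. Klk10 (ENSMUSG00000030693) runs from 43781035 to 43785410 and Klk11 (ENSMUSG00000067616) from 43774604 to 43779263.

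The annotated 250 bases before the start sites of Klk11 and Klk10, the members that fell, are shown because these neighbouring genes both fell. They are RefSeq promoter sequences of GRCm38.p6, plus strand, written 5′ to 3′, at chr7:43774367-43774616 for Klk11 and chr7:43780804-43781053 for Klk10. Klk11 has a second RefSeq start site further downstream that is not printed. Capitals mark a match to a searched motif.
Klk11: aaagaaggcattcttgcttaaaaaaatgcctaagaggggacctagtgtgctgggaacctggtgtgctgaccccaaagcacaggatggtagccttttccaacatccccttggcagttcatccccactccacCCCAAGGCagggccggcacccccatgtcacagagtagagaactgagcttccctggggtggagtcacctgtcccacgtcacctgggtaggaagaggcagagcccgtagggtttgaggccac
Klk10: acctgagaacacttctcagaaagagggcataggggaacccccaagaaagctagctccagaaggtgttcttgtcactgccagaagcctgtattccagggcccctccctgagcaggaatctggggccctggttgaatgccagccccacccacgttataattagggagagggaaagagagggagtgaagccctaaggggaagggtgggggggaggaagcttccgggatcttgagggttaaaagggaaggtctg

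Both strands of the 12 kallikrein promoters in the RefSeq table, which cover all 10 genes, were searched for 4 motifs. CCNNAGGC, described for human ZNF750, occurs in 3 of the 12, before Klk9, Klk11 and Klk12, beside 20.4% of 32851 promoter windows of the same length. It occurs neither before Klk10 nor before the second start site of Klk11. In Klk11 its letters are CCCAAGGC, starting at position -120 from the start site, and in Klk9 overlapping matches on both strands start at -193 and -194. TATAAA occurs in 12.4% of all windows, the AP-1 motif TGANTCA in 6.75% and the grainyhead motif AACCNGTT in 1.79%, and 0 of the 12 kallikrein windows hold any of these. A match describes the letters only, and a missing match says only that the letters are not in these 250 bases.

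Klk10 encodes a kallikrein for which little protease activity is known. Its FPKM was 37.3, 33.5 and 26.5 in Control replicates 1, 2 and 3 and 14.97, 16.6 and 14.0 in Znf750_cKO replicates 1, 2 and 3. Every Znf750_cKO library was therefore below every Control library, and the Znf750_cKO libraries were close to each other. Klk10 fell from 32.4 ± 5.44 to 15.2 ± 1.33 FPKM (log2 change -1.03 on the log2(FPKM + 1) scale, SE 0.14, 95% interval -1.36 to -0.71, limma adjusted p = 0.012). With its single annotated transcript, these levels correspond to an estimated 790 to 1349 reads per Control library and 410 to 674 per Znf750_cKO library.

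Klk11, also called hippostasin, encodes a trypsin-like kallikrein. Its FPKM was 51.1, 58.1 and 53.3 in the Control replicates and 33.8, 32.7 and 26.5 in the Znf750_cKO replicates. The groups did not overlap, and the SD of the Control libraries was 6.58% of their mean. Klk11 fell from 54.2 ± 3.56 to 31.0 ± 3.92 FPKM (log2 change -0.79, SE 0.12, 95% interval -1.07 to -0.52, limma adjusted p = 0.016).

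Both calls were lost without Znf750_cKO replicate 1, at a limma adjusted p of 0.061 for Klk10 and 0.056 for Klk11. The log2 changes there were -1.03 and -0.85, and 100 genes were called in all in that fit. Without Control replicate 2 the limma adjusted p of Klk11 was 0.062, with a log2 change of -0.74. With all 6 libraries, 4.22% of all 13688 tested genes were called changed, 1.11% as rising and 3.1% as falling. Of the kallikreins, 2 of 9 tested, 22.2%, were called, both falling. With the replicate number as a block 2.86% of all tested genes were called, Klk10 and Klk11 among them. The whole-table count was 577 genes, of which 152 rose and 425 fell. After median-ratio scaling 258 rose and 295 fell, and after quantile normalization 201 rose and 218 fell. The tissue was measured in bulk, so fewer cells of a type and less RNA per cell cannot be told apart in any of these values.

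Klk13 and Klk8 had the next smallest p among the members and did not pass. Klk8 encodes neuropsin, a trypsin-like protease found in the epidermis and the brain. Its FPKM was 79.8, 122 and 114 in Control and 63.6, 62.4 and 66.6 in Znf750_cKO. The groups did not overlap, and the SD of the Znf750_cKO libraries was 3.38% of their mean. The means were 105 ± 22.4 and 64.2 ± 2.17 FPKM, with a log2 change of -0.68 (SE 0.16, 95% interval -1.05 to -0.31, limma adjusted p = 0.057). This value lay near the threshold. It passed in 4 of 17 alternatives: 0.0495 on TPM, 0.048 after quantile normalization, 0.045 with a stricter filter and 0.021 without Control replicate 1. Among the others it was 0.097 after median-ratio scaling and 0.21 with no low-value filter. With any other single library left out it was between 0.10 and 0.17.

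Klk13, at the upstream side of the cluster, encodes a trypsin-like kallikrein. It had 19.4, 25.65 and 23.9 FPKM in the Control libraries against 14.5, 15.8 and 9.67 in the Znf750_cKO libraries. These groups did not overlap either, with the lowest value in Znf750_cKO replicate 3. The log2 change was -0.76 (SE 0.19, 95% interval -1.20 to -0.33, limma adjusted p = 0.065), from 23.0 ± 3.22 to 13.3 ± 3.21 FPKM.

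Klk9, which lies between Klk10 and Klk8, varied more. Its FPKM was 43.8, 70.55 and 42.65 in Control and 32.8, 23.8 and 48.0 in Znf750_cKO. The groups overlapped, because Znf750_cKO replicate 3 lay above Control replicates 1 and 3. The means were 52.3 ± 15.8 and 34.8 ± 12.2 FPKM, with a log2 change of -0.59 (SE 0.31, 95% interval -1.34 to 0.16, limma adjusted p = 0.34). Without replicate 3 of both groups the log2 change was -0.97.

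The levels of Klk7 and Klk5, the main proteases of corneodesmosome breakdown, did not differ beyond the spread between libraries. Klk7 had 139.8, 253 and 176 FPKM in the Control libraries against 229.7, 170.2 and 243 in the Znf750_cKO libraries. Control replicate 2 was the highest and Control replicate 1 the lowest of the 6, so the Znf750_cKO values fell inside the Control range. The means were 189.8 ± 57.8 and 214 ± 38.8 FPKM (limma adjusted p = 0.69, log2 change 0.20, SE 0.24). The 95% interval, -0.36 to 0.76, corresponds to levels from 0.781 to 1.69 times Control, so it leaves room for a moderate change in either direction.

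Klk5, the trypsin-like protease that can activate Klk7 and itself, also overlapped between the groups. It had 81.2, 155 and 106 FPKM in the Control libraries against 149, 124 and 121 in the Znf750_cKO libraries. As for Klk7, Control replicate 2 was the highest and Control replicate 1 the lowest of the 6, but within Znf750_cKO replicate 1 was highest for Klk5 and replicate 3 for Klk7. The log2 change was 0.24 (SE 0.23, 95% interval -0.30 to 0.78, limma adjusted p = 0.60), with means of 114 ± 37.8 and 131 ± 15.4 FPKM. Without Control replicate 2 the log2 changes of Klk5 and Klk7 were 0.49 and 0.43, and without Control replicate 1 they were 0.026 and 0.0032, neither past the threshold.

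Klk6, a trypsin-like kallikrein also made in the brain, had the largest positive log2 change of the members and did not pass. Its FPKM was 5.60, 7.24 and 3.24 in Control and 13.1, 7.15 and 20.4 in Znf750_cKO. Znf750_cKO replicates 1 and 3 lay above every Control library and replicate 2 just below Control replicate 2. The means were 5.36 ± 2.01 and 13.6 ± 6.64 FPKM (log2 change 1.14, SE 0.42, 95% interval 0.11 to 2.17, limma unadjusted p = 0.035 and adjusted p = 0.20). Without replicate 3 of both groups the log2 change was 0.54.

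Klk14 and Klk12 were the lowest members. Klk14, a potent trypsin-like protease of the outer epidermis, had 1.14, 1.75 and 4.98 FPKM in the Control libraries against 1.65, 0.75 and 5.06 in the Znf750_cKO libraries. The third replicate was high in both groups, at 190% and 203% of its group mean, and the rest lay below 2 FPKM. The log2 change was -0.11 with a wide 95% interval, -1.57 to 1.35 (limma adjusted p = 0.95). Klk12 ranged from 0.04 to 0.19 FPKM in Control and from 0.05 to 0.32 in Znf750_cKO, an estimated 1 to 7 reads per library, so a difference was not detectable at this depth.

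**Figure D2:**
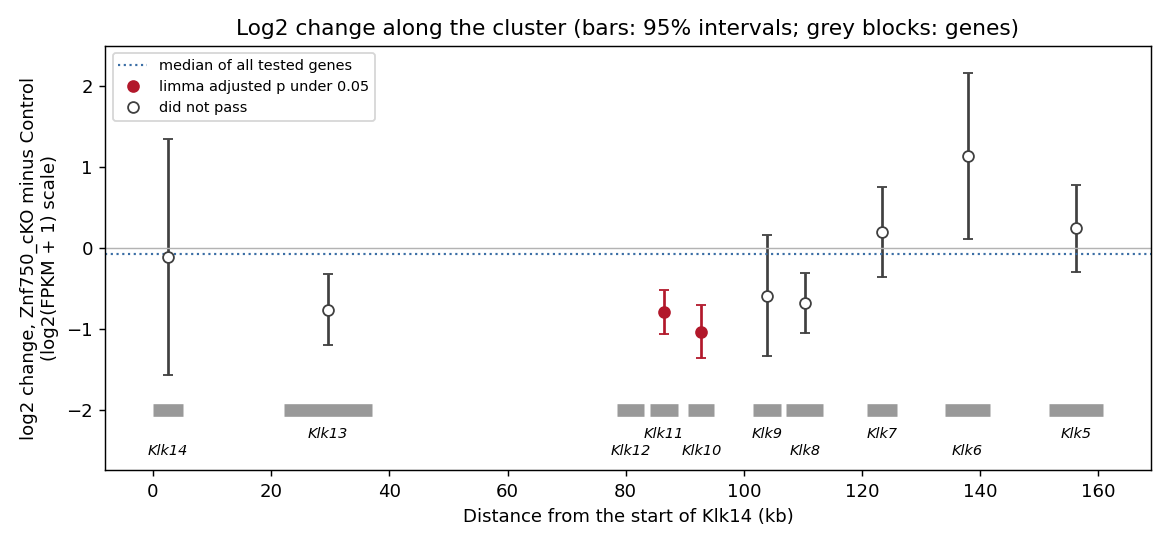
Log2 change (Znf750_cKO minus Control, log2(FPKM + 1) scale) with 95% interval for the 9 tested kallikreins against the distance of the gene from the start of Klk14 in kb; grey blocks are the 10 genes and filled points passed limma. Klk13, Klk11, Klk10, Klk9 and Klk8 lie between -0.59 and -1.03, while Klk7, Klk6 and Klk5 lie between 0.20 and 1.14.

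Read in genomic order, the log2 change was negative at each tested gene from Klk14 to Klk8 and positive from Klk7 to Klk5. The median over the 9 genes was -0.59, beside -0.08 over all 13688 tested genes. The groups did not overlap in 4 of the 9, each lower in Znf750_cKO, where 28% of all tested genes do not overlap, 19.7% with Znf750_cKO lower and 8.28% with it higher. Klk14 alone had a log2 change whose sign turned under some settings. Unadjusted limma p-values under 0.05 were found for 5 of the 9 members, beside 21.3% of all tested genes.

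The ratio of 2 neighbouring genes within a library does not depend on how the libraries are scaled. Of 8 such ratios between tested neighbours, 2 did not overlap between the groups. By FPKM, 28% of all tested genes do not overlap either, and no rate over other gene pairs was computed. The ratio Klk8/Klk7 was 0.571, 0.482 and 0.645 in Control and 0.277, 0.366 and 0.274 in Znf750_cKO (two-sided exact permutation p = 0.1, the smallest that 3 against 3 libraries allow, and 0.4 adjusted over the 8 ratios). Klk8 was below Klk7 in each library, and further below it in each Znf750_cKO library than in any Control library.

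The ratio Klk7/Klk6 was 25.0, 35.0 and 54.5 in Control and 17.5, 23.8 and 11.9 in Znf750_cKO, with the same exact permutation p. The ratio Klk13/Klk11, in contrast, was 0.423 ± 0.0379 in Control and 0.425 ± 0.0585 in Znf750_cKO (exact permutation p = 1). For these genes, on either side of Klk12, the group means of the ratio differed by less than the spread between libraries. The other 5 ratios overlapped between the groups, with exact permutation p from 0.2 to 0.9.

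The members' profiles over the 6 libraries can be compared by the distance between their mean-centred log2(FPKM + 1) values, where 0 means the same pattern. Of 36 pairs the closest was Klk13 and Klk11, at 0.311, followed by Klk7 and Klk5 at 0.403 and Klk11 and Klk8 at 0.499. Klk10 and Klk6 were the farthest apart, at 2.94. All points share the same libraries, so these distances are a description with no test.

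Among all tested genes, those closest in pattern to Klk10 were Slc16a14, Fer and Scimp, at distances of 0.188, 0.188 and 0.193. Tmod4 and Gadl1 were among the 3 closest to Klk11, at 0.141 and 0.147. On TPM, 1 of the 3 for Klk10 was again among the closest 3.

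By mean level in Control the order was Klk7, Klk5, Klk8, Klk11, Klk9, Klk10, Klk13, Klk6, Klk14 and Klk12. In this order Klk7 and Klk5, Klk5 and Klk8, Klk11 and Klk9, and Klk6 and Klk14 overlapped in range. Compared within a library, Klk7 was above Klk5 in 3 of 3 Control libraries, while Klk5 above Klk8, Klk11 above Klk9 and Klk6 above Klk14 held in 2 of 3 each. In Znf750_cKO the order was Klk7, Klk5, Klk8, Klk9, Klk11, Klk10, Klk6, Klk13, Klk14 and Klk12. There Klk9 and Klk11, Klk10 and Klk6, and Klk6 and Klk13 overlapped, while Klk5 lay above Klk8 in each library.

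**Figure D3:**
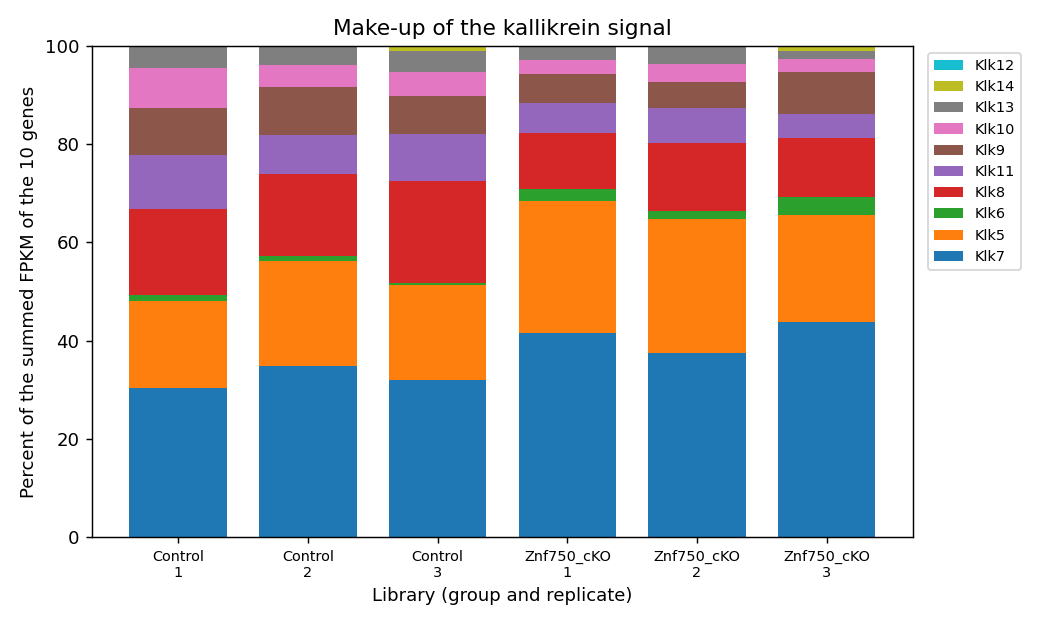
Percent of the summed FPKM of the 10 kallikreins taken by each gene, 1 stacked bar per library. The bottom block, Klk7, takes 30.45 to 34.8% in Control and 37.6 to 43.9% in Znf750_cKO.

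As a share of the summed kallikrein FPKM, Klk7 took 32.4 ± 2.20% in Control and 41.0 ± 3.18% in Znf750_cKO. Klk5 took 19.4 ± 1.85% and 25.3 ± 3.08%, and Klk6 took 0.93 ± 0.32% and 2.54 ± 1.06%. Klk8 took 18.3 ± 2.09% and 12.4 ± 1.19%, Klk11 took 9.60 ± 1.58% and 6.04 ± 1.22%, and Klk10 took 5.84 ± 1.97% and 2.97 ± 0.62%. In these 6 genes, and in Klk13, the shares of the groups did not overlap (two-sided exact permutation p = 0.1 each, the smallest possible, and 0.143 adjusted over the 10 shares). Shares add to a fixed total, so a lower share of some members raises the others, and these are not separate observations. By FPKM, 28% of all tested genes do not overlap.

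Within 200 kb of the kallikreins, 3 other genes were tested. Ctu1, a tRNA-modifying enzyme gene upstream of Klk14, had 7.19 ± 1.34 FPKM in Control libraries and 7.11 ± 1.19 in Znf750_cKO libraries (log2 change -0.012, limma adjusted p = 0.98, its sign not fixed across settings). Cd33, a gene of myeloid leukocytes further upstream, had 2.71 ± 1.27 FPKM in Control libraries and 0.29 ± 0.13 in Znf750_cKO libraries and fell (limma adjusted p = 0.023, log2 change -1.47). Cd33 lay under 1 FPKM in each Znf750_cKO library, so it reached the filter only through the Control libraries. With the replicate block its adjusted p was 0.057, and it was between 0.050 and 0.098 when Control replicate 2, Control replicate 3, Znf750_cKO replicate 1 or Znf750_cKO replicate 2 was left out, 0.060 after quantile normalization and 0.107 with no low-value filter. The leukocyte markers Ptprc, Cd74 and Tyrobp given above were lower in the same libraries.

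The third is 2310002F09Rik, a noncoding RNA gene on the minus strand from 43695209 to 43797958, whose span covers the 7 genes from Klk14 to Klk8. Its FPKM was 4.76, 4.29 and 8.92 in Control and 5.56, 7.96 and 4.21 in Znf750_cKO, where the groups overlapped (log2 change 0.0063, limma adjusted p = 0.995, its sign not fixed across settings). It shares exon sequence with Klk14, over 22.6% of Klk14's exon bases, and with Klk8, over 24.8%. Of all stretches of 100 bases in their transcripts, 16.6% for Klk14 and 19% for Klk8 also occur in transcripts of other genes, and 0% for each of the other members. The labels do not say whether the libraries keep strand, so it is not known whether reads there could be told apart. At these levels any mixing would bear on Klk14 more than on Klk8. The exons of the other 8 members share no base with another annotated gene.

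Other kallikreins of the mouse genome were nearly silent. The 17 listed, among them Klk1, the Klk1b genes, Klk4, Klk15 and Klkb1, summed to 0.18 to 0.90 FPKM in Control and 0.04 to 0.27 in Znf750_cKO, and 0 of them reached the filter.

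The granular layer, where kallikreins are made, has its own markers. The 6 on the list, Lor, Flg, Flg2, Casp14, Ivl and Lce1m, summed to 5304 to 9298 FPKM in Control and 4028 to 4735 in Znf750_cKO. Casp14 fell and Ivl rose, Lor, Flg, Flg2 and Lce1m did not pass, 5 of 6 log2 changes were negative, and their median was -0.87. The part of these markers in the kallikrein values was not tested. Control replicate 2, the library highest in Klk5, Klk7, Klk8, Klk9, Klk11 and Klk13, also had the highest Flg, at 2309 FPKM against 1336 and 1325 in the other Control libraries. Other members did not share this peak: Klk10 was highest in Control replicate 1, and Klk6, Klk12 and Klk14 were highest in Znf750_cKO replicate 3.

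Around the kallikreins, 60 genes were listed by role, among them the 17 other kallikreins above, of which 0 were tested. Of the 60, 32 were tested, of which 1 rose, 1 fell and 30 did not pass. Their median log2 change was -0.09, beside -0.08 over all tested genes. The 2 that passed stand beside the 4.22% called among all tested genes. After median-ratio scaling 4 passed, with the activating protease St14 and the cathepsin Ctsl among those that rose, and with the replicate block 1 did.

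**Figure D4:**
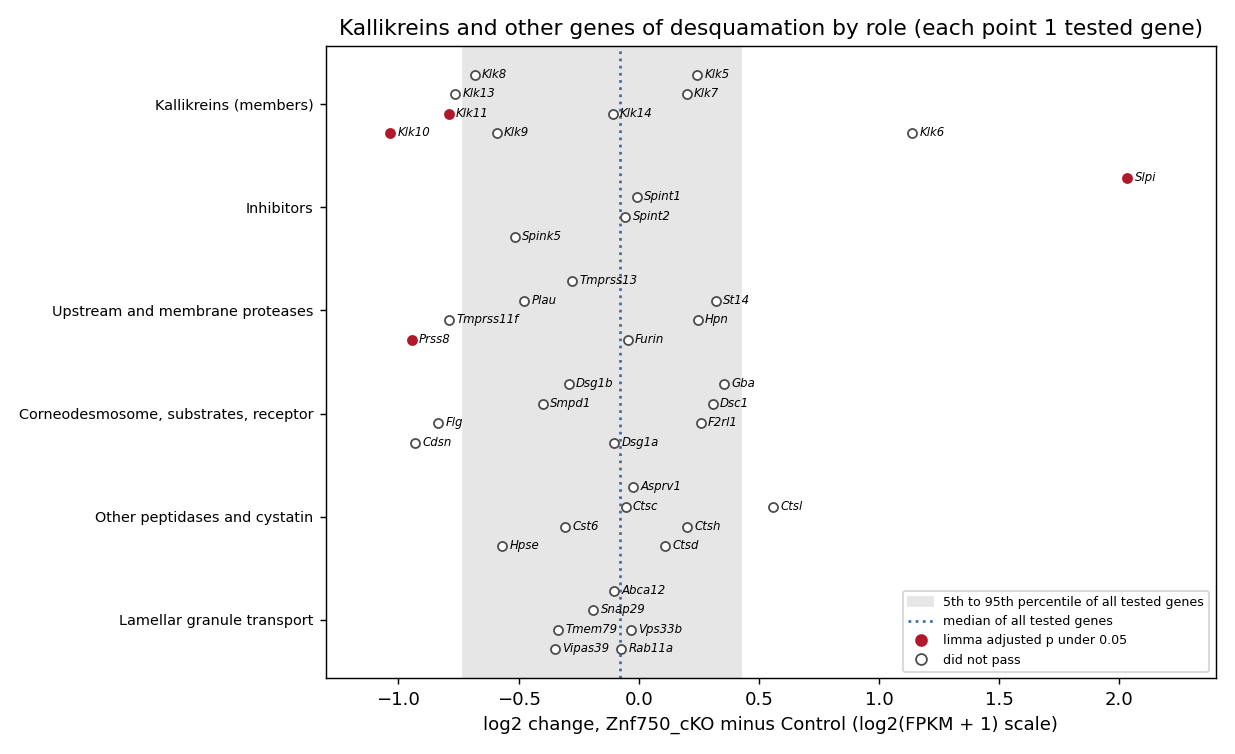
Log2 change (Znf750_cKO minus Control, log2(FPKM + 1) scale) of tested genes of desquamation, in rows by role; each point is 1 gene, filled points passed limma, and the grey band spans the 5th to 95th percentile of all tested genes, -0.73 to 0.43. Klk10, Klk11 and Prss8, which passed, lie left of the band and Slpi, which passed, right of it. Klk13, Cdsn, Flg and Tmprss11f, also left of it, and Klk6 and Ctsl, right of it, did not pass. The other points lie inside the band.

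Among the inhibitors, 1 of 4 tested rose and 3 did not pass. Slpi, a secreted inhibitor of serine proteases, had 0.18, 0.60 and 0.44 FPKM in the Control libraries against 5.29, 3.49 and 5.60 in the Znf750_cKO libraries. It rose without overlap of the groups (log2 change 2.03, SE 0.21, limma adjusted p = 0.0041). Slpi lay under 1 FPKM in each Control library, so it reached the filter only through the Znf750_cKO libraries. Spink5, the source of LEKTI, had 57.8, 82.2 and 67.3 FPKM in the Control libraries against 51.0, 44.8 and 47.1 in the Znf750_cKO libraries (log2 change -0.51, limma adjusted p = 0.082). Each Znf750_cKO library lay below each Control library. The most abundant inhibitor, Spint2, stood at 165 ± 9.13 and 159 ± 15.9 FPKM (limma adjusted p = 0.84), and its sign turned under median-ratio scaling.

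Of 7 tested upstream and membrane proteases, 1 fell and 6 did not pass. Prss8, a membrane-anchored protease that acts with matriptase, had 24.9, 33.1 and 24.2 FPKM in the Control libraries against 13.8, 11.9 and 15.4 in the Znf750_cKO libraries. It fell by 0.94 on the log2 scale (SE 0.15, limma adjusted p = 0.018). The adjusted p was 0.055 with the replicate block, 0.052 without Control replicate 1, 0.054 without Control replicate 2 and 0.079 without Znf750_cKO replicate 1. St14, matriptase itself, stood at 22.8 ± 0.68 and 28.7 ± 0.23 FPKM (log2 change 0.32, limma adjusted p = 0.092). Plau, the most abundant of the list and a plasminogen activator, stood at 43.8 ± 5.34 and 31.1 ± 2.28 FPKM (limma adjusted p = 0.068).

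Substrates and the receptor gave no call, with 0 of 8 tested past the limma threshold. Of these, 5 had an unadjusted p under 0.05, beside 21.3% of all tested genes. Of the 8 log2 changes 3 were positive and 5 negative. Corneodesmosin, Cdsn, which kallikreins cut at the surface, had 106.2, 184 and 101 FPKM in the Control libraries against 72.9, 50.7 and 76.1 in the Znf750_cKO libraries. The groups did not overlap (log2 change -0.93, SE 0.27, limma adjusted p = 0.12). The cadherins Dsg1a and Dsc1 had 245 ± 14.3 and 100.2 ± 2.97 FPKM in the Control libraries against 230.2 ± 38.7 and 125 ± 16.6 in the Znf750_cKO libraries (limma adjusted p = 0.74 and 0.18). F2rl1, the receptor PAR2 that kallikreins can activate, stood at 16.7 ± 2.45 and 20.1 ± 1.88 FPKM (limma adjusted p = 0.32). Flg, the most abundant gene of the list, stood at 1656 ± 565 and 903 ± 135 FPKM (limma adjusted p = 0.10).

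The 7 other genes of shedding were the cathepsins Ctsd, Ctsl, Ctsh and Ctsc, the cystatin Cst6, Asprv1 and Hpse. Hpse encodes heparanase, a glycosidase and no peptidase. Of the 7, 0 passed limma, and 2, Ctsl and Hpse, had an unadjusted p under 0.05, beside 21.3% of all tested genes. Of their log2 changes 3 were positive and 4 negative, and the median was -0.023. Asprv1, the most abundant, an aspartic protease of the granular layer, stood at 1450.3 ± 474 and 1405 ± 306 FPKM (limma adjusted p = 0.98, its sign not fixed across settings). The cathepsin Ctsl stood at 138 ± 16.2 and 204 ± 27.4 FPKM (limma adjusted p = 0.064). Genes of lamellar granule transport, which carries the kallikreins out of the cell, gave 0 limma calls among 6 tested. Of these, 2 had an unadjusted p under 0.05, again beside 21.3% of all tested genes. All 6 log2 changes were negative, between -0.35 and -0.031, beside a median of -0.08 over all tested genes. Rab11a, the most abundant, stood at 279 ± 25.9 and 265 ± 17.7 FPKM. Under median-ratio scaling its log2 change turned positive, and the median over all tested genes was 0.0004.

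**Figure D5:**
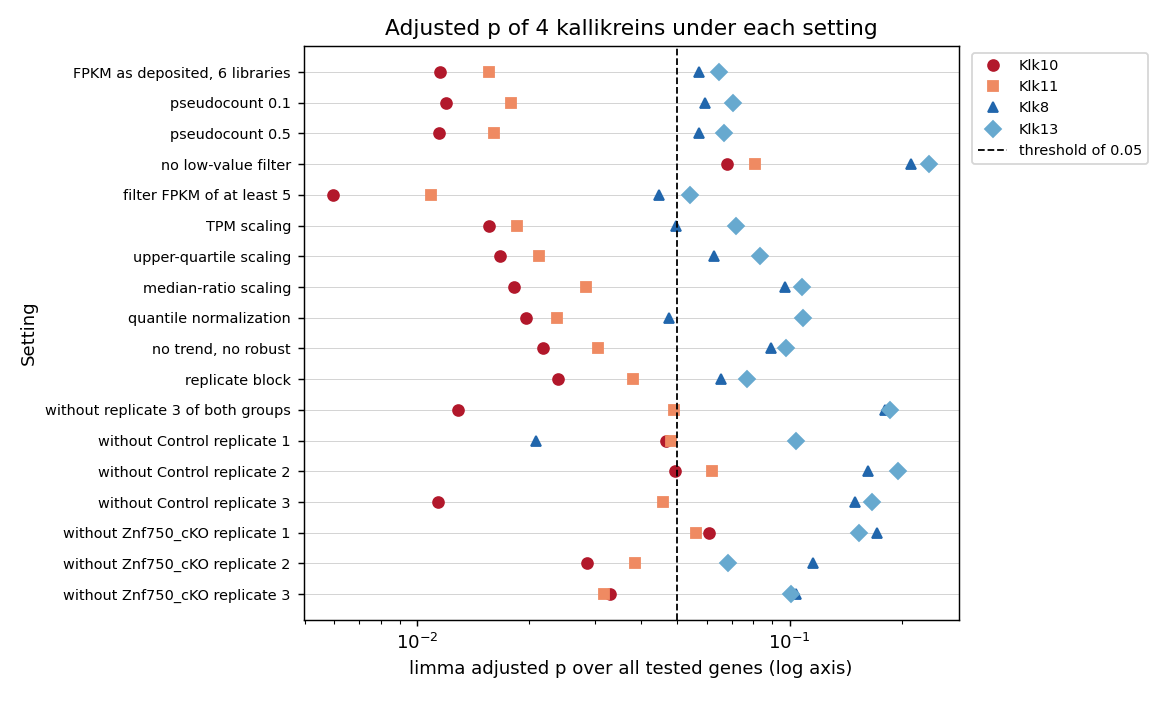
Limma adjusted p (log axis) of Klk10, Klk11, Klk8 and Klk13 under each setting (rows), with the threshold of 0.05 as a dashed line. Klk10 stays left of the line in all rows but 2 and Klk11 in all but 3, Klk8 crosses it in 4 rows, and Klk13 stays right of it in each.

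Across settings, Klk10 passed limma in 15 of 17 alternatives and Klk11 in 14 of 17, with the same direction in each. Klk8 passed in 4 of 17 and Klk13 in 0 of 17, and both kept a negative log2 change throughout. Klk5, Klk6 and Klk7 kept a positive log2 change in all 17 and passed in 0.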

How the data were processed

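The authors deposited 1 table per library with FPKM values per Ensembl gene, per the file headers, printed to 2 decimals. The submitters' processing notes name STAR 2.5.2a and RSEM 1.2.28, cutadapt 1.15 and Trim Galore 0.4.5, the quality tools MultiQC 1.0 and FastQC 0.11.8, DESeq2, and the builds mm10 and GRCm38. The sources used here give neither their roles nor the annotation release. Symbols matched 55141 of 55487 identifiers. limma 3.58.1 (R 4.3.3, statmod 1.5.0), with trend and robust variances, was fitted on the group alone to log2(FPKM + 1) of the 13688 genes that reached 1 FPKM in 3 or more libraries. P-values were adjusted by Benjamini-Hochberg over those genes, with a threshold of 0.05, and "rose" and "fell" mean past it. The FPKM + 1 scale understates changes of low genes. Errors are SDs over 3 libraries. The fit was tested on simulated data. Figures used Python 3.11.15 and matplotlib 3.10.9.

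The members and lists were chosen with earlier results of these data known. Genes named are the 10 members, Zfp750, list genes past the threshold, the most abundant tested gene of each list, tested genes within 200 kb, and the 3 genes closest in pattern to each member that passed, of which 1 is not reported here. Spink5, St14, Tmprss11f, Cdsn, Dsg1a, Dsc1, F2rl1, Ctsl, Hpse, Ctsd, Ctsh, Ctsc, Cst6 and the marker genes were named after their values were seen. Depth was estimated from transcripts of 300 to 900 bases that are the only one of their gene, where 70.7% to 77.5% of low values per library fell within 0.1 read of a whole number. The depths and the estimated reads per gene assume a read length of 100 bases, and they entered no test. Libraries with the same replicate number deviated together (correlations of 0.31, 0.17 and 0.48 across genes for numbers 1, 2 and 3), although Control replicate 1 and Znf750_cKO replicate 2 reached 0.24, so a fit that adds the replicate number as a block was also run. What the numbers mean is not in the labels.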

Additional observations from a re-analysis of the deposited data

How the results depend on the processing

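Read depth limits Klk12, and for Klk14 the spread between libraries was 78.7% of the mean in Control and 91.4% in Znf750_cKO. With the replicate block 392 genes changed in all, 2 kallikreins and 1 pathway gene, and Klk10 and Klk11 had adjusted p of 0.024 and 0.038. Prss8, Cd33 and Ivl (adjusted p 0.058) lost their calls with the block. Itga6 and Col17a1 passed only with it among these (adjusted p 0.044 and 0.048, both higher in Znf750_cKO), and no other named gene's call changed. Of 577 changed genes the count was 85 with no low-value filter (35621 genes tested) and 100 to 356 with any 1 of the 6 libraries left out. Kallikreins called numbered 0 with no low-value filter (adjusted p of 0.068 for Klk10, log2 change -1.03, and 0.081 for Klk11, log2 change -0.79), and 0 to 3 with 1 library left out. Pathway genes called numbered 1 with no low-value filter, 1 with the filter at an FPKM of 5, 4 after median-ratio scaling and 1 to 2 with 1 library left out. Slpi did not reach the filter at an FPKM of 5 and was not tested there. With 1 library left out, log2 changes ran from -1.17 to -0.93 for Klk10, from -0.85 to -0.69 for Klk11, from -0.87 to -0.56 for Klk8 and from -0.61 to 0.33 for Klk14. Klk8 passed at -0.68 with the filter at an FPKM of 5, at -0.67 on TPM and at -0.68 after quantile normalization, and Klk14 was 0.12 after quantile normalization. Among genes that did not pass, log2 changes of the opposite sign were 0.065 for Asprv1, 0.015 for Rab11a, 0.032 for Spint2 and 0.066 for Ctu1 after median-ratio scaling. For Ctu1 they were 0.0050 after upper-quartile scaling, 0.10 after quantile normalization and 0.21 without replicate 3 of both groups, and for Spint2 0.059 there. With 1 library left out they ran from -0.20 to 0.29 for 2310002F09Rik, from -0.17 to 0.23 for Asprv1, from -0.12 to 0.12 for Ctu1 and from -0.13 to 0.014 for Spint2. The cause of these differences was not tested.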
